A study of Mus musculus with 9 samples.

Results

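Meningeal group 2 innate lymphoid cells (ILC2s) taken 24 h after spinal cord injury were compared with ILC2s of uninjured lung, to see which features of the lung cells the injured meningeal cells reach, exceed or lack. The comparison used 3 libraries per group, 6 of the 9 libraries in the series, and they were chosen by their tissue and injury labels alone. The other 3 libraries, from uninjured brain meninges, entered only where stated. All mice were wild type, carried the strain label C57/Bl6 (C57BL/6J in the growth protocol) and were 10 weeks old. In the injured group, RNA came from cells of the brain meninges, the membranes around the brain, after a contusion of the spinal cord with 80 kdyn. The lung group had received no treatment. The study describes 1 sort gate for its cells, CD45+, DAPI-, Lin-, St2+ and Thy1+, that is, live leukocytes without lineage markers that carry Thy1 and the IL-33 receptor ST2, encoded by Il1rl1. Each group pooled 5 mice per the labels, and it is not stated whether each library came from a separate pool. The p-values therefore reflect only how far libraries differ, and these differences may be technical. No injured lung and no sham-operated group was analysed here, so the contrast of these 2 groups cannot tell tissue and injury apart.

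ILC2s are tissue-resident lymphocytes without antigen receptors that respond to alarmins such as IL-33 and IL-18, to cytokines of the common gamma chain family and to neuropeptides, and that release type 2 cytokines and growth factors. Their identity rests on transcription factors such as GATA3, RORα and ID2. Immediate early genes are transcribed within minutes of a stimulus from factors already present in the cell, and genes for NF-κB inhibitors such as A20 (Tnfaip3) and IκBα (Nfkbia) are both targets and brakes of that pathway.

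The 6 libraries held 13407277 to 16730395 counts each. Levels are given as CPM, read counts rescaled to a common library size by the trimmed mean of M values, in the order of replicates 1, 2 and 3, and n = 3 libraries per group throughout. The libraries of injured meninges correlated with each other at a Spearman's rho of 0.787 to 0.852 across genes, and the lung libraries at 0.854 to 0.885. Injured meninges 2 stood apart, with the fewest genes detected (13465, against 15888 to 18078 in the other 5) and a rho of 0.787 and 0.792 with its own group. Without it, 240 genes were called in place of the 172 given below.

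Of 13721 genes tested with edgeR's quasi-likelihood test, 172 (1.25%) passed a Benjamini-Hochberg adjusted p under 0.05 and are termed called. Only 19 (0.138%) were higher in injured meninges and 153 (1.12%) were lower. At an unadjusted p under 0.05 there were 585 higher and 959 lower. The DESeq2 Wald test called 262 higher and 876 lower. Of the 153 lower genes, 37 had no count in any injured library. As a high p does not show that levels are alike, a gene is said to reach the lung level where the 95% interval of its log2 fold change lies wholly within 2-fold. That held for 1242 genes (9.05%), and for 56.5% of the 1695 genes above 100 CPM. These intervals are per gene and were not adjusted for the number of genes. The counts depended on single libraries. Genes called fell to 114 without injured meninges 3, 99 without lung 1, 119 without lung 2 and 59 without lung 3, and genes within 2-fold to 745, 762 and 736 without lung 1, 2 and 3.

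**Figure D1:**
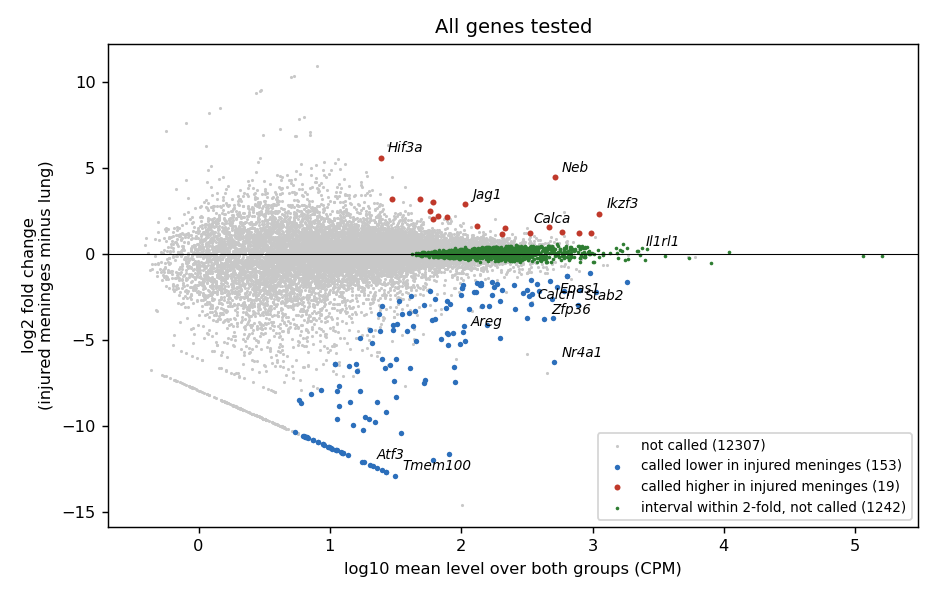
Log2 fold change of injured meninges minus lung (vertical axis) against the log10 mean level over both groups in CPM (horizontal axis), 1 point per gene tested. Red and blue points are the 19 and 153 called genes, green points the 1242 genes whose 95% interval lies within 2-fold; the oblique edge at the lower left holds genes with no count in the injured libraries, whose fitted values depend on a prior count and are no measure of size.

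Genes of the sort and of the ILC2 lineage were within 2-fold of lung about as often as other abundant genes. Il1rl1, the gene of the receptor used in the sort, stood at 1898, 2478 and 2649 CPM in injured meninges and 1824, 2354 and 2135 CPM in lung. Its log2 fold change of 0.15 ± 0.18 had a 95% interval of -0.24 to 0.55. The leukocyte gene Ptprc, which encodes CD45, stood at 1355, 1983 and 2034 CPM against 1363, 1869 and 1519.9 CPM, with an interval of -0.27 to 0.62. For both, the ranges of the 2 groups overlapped. Thy1, the third gene of the gate, was below lung in every injured library, at 91, 59.2 and 50.5 CPM against 150.2, 162 and 135 CPM, but did not pass the test (-1.15 ± 0.32, edgeR adjusted p = 0.12).

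Gata3, the master regulator of the lineage, gave 499.8, 594 and 489 CPM in injured meninges and 512, 612 and 510.1 CPM in lung, an interval of -0.48 to 0.39. Rora, which ILC2s need to develop, gave 746, 986 and 1219 CPM and 727, 926 and 1145 CPM, an interval of -0.43 to 0.59. In both genes the groups overlapped almost completely. Of 39 lineage genes tested, 15 were within 2-fold, all of them among the 26 members above 100 CPM, a share close to the 56.5% of all genes at that level. They included the factors Bcl11b (-0.46 to 0.61), Ets1 (-0.31 to 0.49), Id2 (-0.21 to 0.97), Runx1 (-0.81 to 0.29), Maf (-0.45 to 0.88) and Hlf (-0.38 to 0.55), the values being 95% intervals of the log2 fold change. The interval stayed within 2-fold in 8 of 13 alternatives for Id2, 10 for Maf and 12 for Runx1. Where no such number is given, here and below, it did so in all 13. The only member called by edgeR was Ikzf3, described below, beside 1.25% of all genes. At an unadjusted p under 0.05 there were 12 of the 39, beside 1544 of all 13721 genes. DESeq2 called 2 higher and 2 lower, beside 262 higher and 876 lower of 15051 genes. Every injured library lay above every lung library in 4 members and below in 7, against 6.91% and 11.4% of all genes. The median log2 fold change of the list was 0.09, beside 0.00542 over all genes tested. Klrg1, a surface marker of mature ILC2s, and Arg1, which encodes arginase-1, were below lung in all injured libraries without passing the test. Klrg1 stood at 27.9, 39 and 44.3 CPM against 54.8, 79.7 and 71.6 CPM (-0.89 ± 0.41, adjusted p = 0.44), and Arg1 at 141, 110.0 and 44.3 CPM against 146, 286 and 153 CPM (-0.99 ± 0.42, adjusted p = 0.39).

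Of 30 alarmin and cytokine receptor genes, edgeR called none, which is near the 1.25% called over all genes, 5 had an unadjusted p under 0.05, and DESeq2 called 1. Within 2-fold lay 8 of them, 7 of these among the 13 members above 100 CPM, again near the 56.5% of all genes. Il2ra, the high-affinity chain of the IL-2 receptor, measured 1632, 1606 and 1768 CPM and 1234, 1718 and 1049 CPM (95% interval -0.12 to 0.76). Il7r, which binds IL-7 and TSLP, measured 1644, 2185 and 2328 CPM and 1421, 1448 and 1251 CPM. All injured libraries exceeded all lung libraries for Il7r, yet the interval of 0.18 to 0.98 kept the difference under 2-fold (in 8 of 13 alternatives). Among the signal transducers, 7 of 22 STAT and SOCS pathway genes were within 2-fold, 6 of them among the 7 members above 100 CPM, with none called by edgeR or DESeq2 and 1 at an unadjusted p under 0.05. Jak1 was one of them, with 539.8, 879 and 586 CPM and 640.2, 585 and 777 CPM (interval -0.51 to 0.51), and the groups overlapped. The glucocorticoid receptor gene Nr3c1 (-0.35 to 0.58), the Notch receptor gene Notch2 (-0.45 to 0.42), the proton-sensing receptor gene Gpr65 (-0.51 to 0.48), the integrin gene Itga4 (-0.09 to 0.72) and the chemokine receptor gene Cxcr6 (-0.59 to 0.61) also had intervals within 2-fold.

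The data could not place some receptors. Nmur1, the receptor of the neuropeptide neuromedin U, gave 70.5, 37.8 and 13.9 CPM in injured meninges and 64.7, 79.9 and 51 CPM in lung. Ramp1, the partner chain of the CGRP receptor, gave 48.1, 87.5 and 29 CPM and 48.3, 51.9 and 19.7 CPM. Both pairs of groups overlapped, and the intervals of -1.87 to 0.52 and -0.72 to 1.64 allow a change of over 2-fold in 1 direction or more, so a difference was not detectable at this replication. The median standard error of the log2 fold change was 0.89 over all genes, 0.287 above 100 CPM and 1.61 under 10 CPM. The type 2 cytokine genes Il5 and Il13 were among these unresolved genes. Il5, which supports eosinophils, stood at 28.6, 15.7 and 8.07 CPM against 24, 23.2 and 93.4 CPM (-1.42 ± 0.71, adjusted p = 0.50). Il13, which acts on epithelium and macrophages, stood at 9.11, 5.64 and 2.34 CPM against 6.84, 14 and 10.7 CPM (-0.88 ± 1.01, adjusted p = 0.84).

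**Figure D2:**
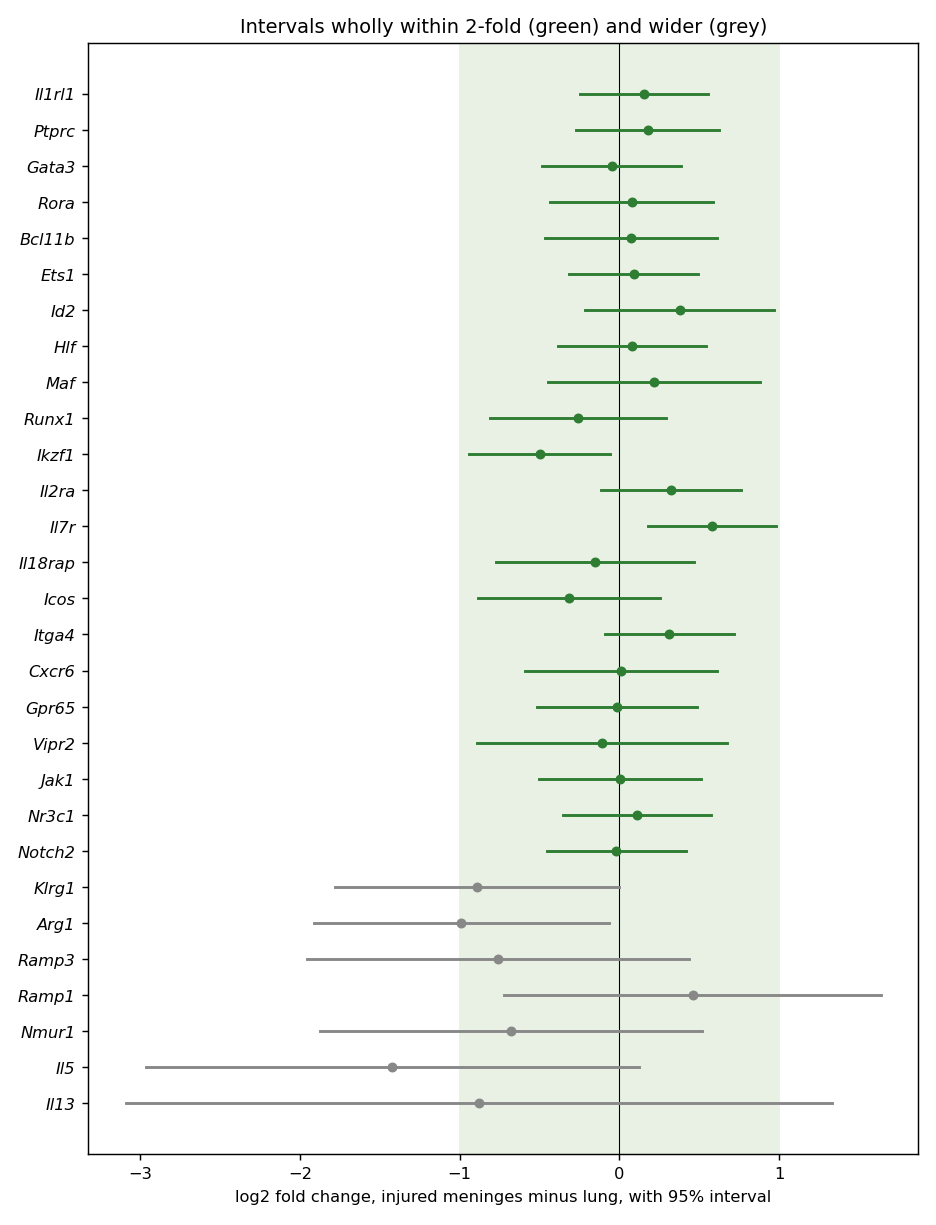
Log2 fold change of injured meninges minus lung with its 95% interval for 29 genes of the sort, lineage, receptors and cytokines; the shaded band marks 2-fold. Green intervals lie wholly inside the band (Il1rl1 -0.24 to 0.55, Gata3 -0.48 to 0.39), while grey ones such as Il13 (-3.09 to 1.33) leave it.

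Where injured meninges exceeded lung, few genes did so, and they belonged to several functions. Ikzf3 encodes Aiolos, a zinc finger factor of the Ikaros family in lymphocytes. It measured 1503, 2036 and 2089 CPM in injured meninges and 379.6, 372 and 359.9 CPM in lung. The lung libraries lay within a narrow range, far under the lowest injured library, and the log2 fold change was 2.34 ± 0.20 (edgeR adjusted p = 0.00016). Its family member Ikzf1, which encodes Ikaros, was below lung in every injured library but within 2-fold, at 595, 582 and 830.0 CPM against 884, 990.5 and 959.7 CPM (interval -0.94 to -0.06, within 2-fold in 8 of 13 alternatives). Jag1, a ligand of Notch receptors, measured 99.7, 226 and 237 CPM and 19.1, 28.8 and 28.1 CPM (2.89 ± 0.40, adjusted p = 0.0043). Injured meninges 1 was the lowest of its group for Jag1 and still stood well above lung. Of the 17 Notch pathway genes tested, Jag1 was the only one called by edgeR, which called 0.138% of all genes higher and 1.12% lower. DESeq2 called 2 of the list higher and 2 lower, beside 262 higher and 876 lower of 15051 genes.

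Neb encodes nebulin, a giant protein of muscle thin filaments. Its levels were 771, 1024 and 1155 CPM in injured meninges and 28.9, 50.6 and 55.6 CPM in lung, a log2 fold change of 4.45 ± 0.31 (adjusted p = 5.8e-05). Every injured library lay far above every lung library. Of 12 skeletal muscle genes listed, 8 were in the table and 3 were tested. Ttn, which encodes titin, was lower in every injured library without passing the test, at 14.9, 21.1 and 28.7 CPM against 63.8, 52.2 and 79.9 CPM (adjusted p = 0.14). Acta1 had at most 1 count in any of the 6 libraries and Ckm at most 6.

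The other called genes of this direction included the collagen-binding integrin gene Itga2, at 72.5, 142 and 48.7 CPM against 5.08, 5.76 and 18.3 CPM (3.18 ± 0.64), and the polarity gene Pard3, at 522, 811 and 764 CPM against 237, 245 and 217 CPM (1.59 ± 0.23). They also included Irgm1, an interferon-induced GTPase, at 70.7, 173 and 86 CPM against 20.3, 32.4 and 19.2 CPM (2.20 ± 0.46). The groups did not overlap in any of these 3 genes, and injured meninges 2 was the highest library in each. The cholesterol exporter gene Abca1 stood at 185, 186 and 231 CPM against 65.3, 59.2 and 68.3 CPM (1.64 ± 0.27), and Txnip, an inhibitor of thioredoxin, at 764, 833 and 896 CPM against 463, 299.8 and 257 CPM (1.29 ± 0.24). Hif3a, a member of the hypoxia-inducible factor family, was near the floor in lung, with 28.1, 82.4 and 32.8 CPM against 0.787, 0.0719 and 2.07 CPM (5.59 ± 1.05). Adjusted p-values in edgeR were 0.036 for Itga2, 0.0053 for Pard3, 0.040 for Irgm1, 0.011 for Abca1, 0.024 for Txnip and 0.024 for Hif3a. These calls were less secure than those of Ikzf3, Neb and Jag1, which held under all 13 alternatives tried. The Itga2 call was lost without injured meninges 1, injured meninges 2, injured meninges 3, lung 1 or lung 2 (adjusted p = 0.051 to 0.15), that of Pard3 without lung 3 (adjusted p = 0.053) and that of Irgm1 without injured meninges 2, injured meninges 3, lung 1, lung 2 or lung 3 (adjusted p = 0.078 to 0.23). The Abca1 call was lost without injured meninges 3, lung 1, lung 2 or lung 3 (adjusted p = 0.058 to 0.081), that of Txnip without injured meninges 3, lung 2 or lung 3 (adjusted p = 0.099 to 0.17) and that of Hif3a without injured meninges 3 or lung 1 (adjusted p = 0.057 to 0.11). An edgeR fit with the replicate number as a block also ended the calls of Itga2 (adjusted p = 0.066) and Hif3a (adjusted p = 0.055). Counts of higher genes fell from 19 to 11 without injured meninges 3, 7 without lung 1, 5 without lung 2 and 7 without lung 3.

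Lists of costimulation, inhibition and the CGRP system held few called genes and members on both sides of lung. Of 19 costimulatory genes tested, 1 had every injured library above lung and 5 had every one below, of which edgeR called 1 lower (Cd44). Of 14 checkpoint genes, 3 lay above and 5 below with none called, and of 6 genes of the CGRP and adrenomedullin system 1 lay above and 1 below, the latter called (Calcrl). Over all genes tested, 6.91% had every injured library above every lung library and 11.4% had every one below, and edgeR called 1.12% lower. The genes described next, other than Il18rap, lay above lung in every injured library without passing the test. Calca, which encodes the neuropeptide CGRP, measured 413, 368 and 615 CPM and 77.4, 194 and 224 CPM (1.50 ± 0.37, adjusted p = 0.086). Pdcd1, the gene of the inhibitory receptor PD-1, measured 72.2, 81.4 and 39.8 CPM and 28.2, 13.2 and 15.6 CPM (1.76 ± 0.51, adjusted p = 0.14). The costimulatory receptor gene Tnfrsf9 measured 94.7, 39.1 and 40.4 CPM and 13.7, 9.5 and 16.5 CPM (2.13 ± 0.56, adjusted p = 0.11). The LIM-domain factor gene Lmo4 stood at 613, 1042 and 793 CPM against 310.0, 510.1 and 372 CPM (1.04 ± 0.26, adjusted p = 0.089). The IL-18 receptor gene Il18r1 stood at 97.9, 110.2 and 64.3 CPM against 49.2, 36.9 and 32.1 CPM (1.20 ± 0.39, adjusted p = 0.19). Its partner chain gene Il18rap lay within 2-fold (interval -0.77 to 0.47, in 12 of 13 alternatives). Gpr35, a G-protein-coupled receptor gene, was scarce in lung, at 48.2, 33.6 and 17.1 CPM against 3.99, 1.87 and 0.879 CPM (3.87 ± 0.86, adjusted p = 0.058). DESeq2 called Calca, Pdcd1, Tnfrsf9, Lmo4, Il18r1 and Gpr35, and edgeR without a filter on low counts called these genes except Pdcd1 and Il18r1.

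**Figure D3:**
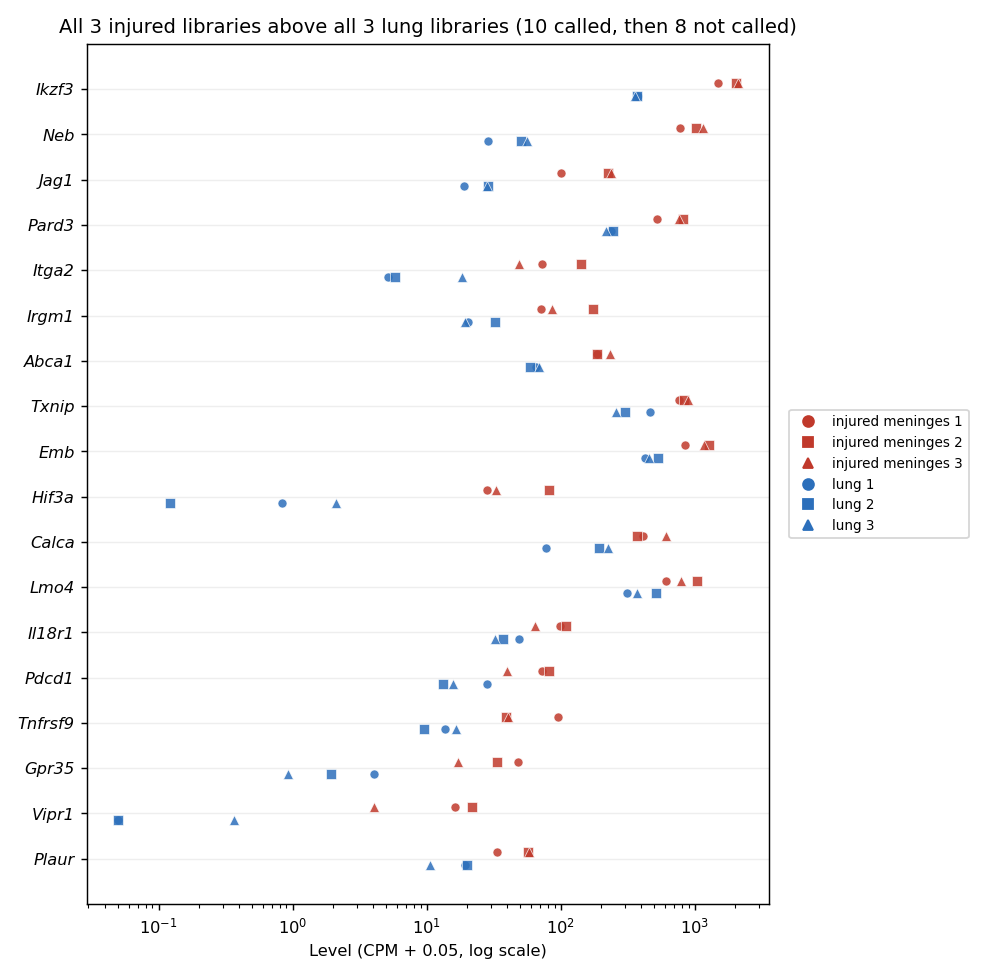
Level in each library (CPM + 0.05, log axis) of 10 called genes (Ikzf3 to Hif3a) and 8 genes that missed the threshold (Calca to Plaur); red marks injured meninges and blue marks lung, and the marker shape gives the replicate. For each gene all 3 red marks lie to the right of all 3 blue marks.

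Libraries of injured meninges lacked the high level of immediate early transcripts found in the lung libraries. Of 41 genes listed, 39 were tested, 12 were lower, none was higher, and 27 were not called. The share of all genes called lower by edgeR was 1.12%. The DESeq2 Wald test called 15 lower and none higher, and at an unadjusted p under 0.05 there were 20 in all. The median log2 fold change of the list was -2.02, and 24 of the 39 had every injured library below every lung library, which held for 11.4% of all genes tested. The number called was 8 without lung 3 and 9 without lung 2. It is not stated whether lung cells were dissociated in the same way as those of the meninges, and the part of this step was not tested.

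Nr4a1, an orphan nuclear receptor gene induced by receptor stimulation, measured 12.6, 8.3 and 17.1 CPM in injured meninges and 591, 1305 and 1144 CPM in lung (-6.32 ± 0.41, edgeR adjusted p = 5.3e-05). Its relative Nr4a3 measured 77.7, 50.9 and 82.6 CPM and 498, 1074 and 1224 CPM (-3.73 ± 0.35, adjusted p = 0.00050). The groups lay far apart in both, and lung 1 was the lowest lung library. Nr4a2 measured 15.7, 6.42 and 9.8 CPM and 133, 249.9 and 215 CPM (-4.22 ± 0.44, adjusted p = 0.00068), but lost its call in a fit of all 9 libraries (adjusted p = 0.32). Atf3, a stress-induced transcription factor gene, had no count in any injured library and 25.7, 46.2 and 49.3 CPM in lung, at least 203-fold lower against a floor of 3 counts per library (adjusted p = 0.0015).

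Brakes on signalling belonged to the same group. Zfp36 encodes tristetraprolin, which destabilizes cytokine mRNAs, and stood at 46.1, 52.6 and 70.9 CPM against 528, 957 and 891 CPM (-3.81 ± 0.30, adjusted p = 0.00013). Dusp1, a phosphatase gene that limits MAP kinase signalling, stood at 16.2, 24.8 and 9.8 CPM against 223, 359 and 313 CPM (-4.14 ± 0.40, adjusted p = 0.00050). Rgs2, a regulator of G-protein signalling, stood at 259, 192 and 458 CPM against 853, 1470.1 and 1602 CPM (-2.11 ± 0.33, adjusted p = 0.0093). No injured library reached any lung library in these genes. The Rgs2 call was lost without lung 3 (adjusted p = 0.054). The remaining called members were Junb (-2.38 ± 0.29), Klf4 (-4.42 ± 0.64), Gadd45b (-7.54 ± 1.24), Ppp1r15a (-3.48 ± 0.61) and Sik1 (-1.72 ± 0.31). Gadd45b had counts in 1 of the injured libraries. The call of Gadd45b was lost without lung 2 or lung 3 (adjusted p = 0.055 to 0.056), that of Ppp1r15a without lung 2 or lung 3 (adjusted p = 0.086 to 0.13) and that of Sik1 without injured meninges 3, lung 2 or lung 3 (adjusted p = 0.073 to 0.11).

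Other immediate early genes were not called, among them some far below lung in most injured libraries. Rgs1 was higher in injured meninges 3 than in any other library, at 209, 319.5 and 718 CPM against 133, 196 and 216 CPM, and the groups overlapped (1.19 ± 0.40, adjusted p = 0.21). Fos varied widely among the injured libraries, injured meninges 2 being the highest, at 4.94, 100.05 and 12.4 CPM against 72.8, 76.1 and 119.6 CPM (-1.19 ± 0.83, adjusted p = 0.69). Egr1 was below lung in all injured libraries with a similar spread, at 7.58, 26.8 and 203 CPM against 271, 458 and 355 CPM (-2.19 ± 1.07, adjusted p = 0.53). Without the injured library highest for each, both were called lower, Fos without injured meninges 2 (-3.40, adjusted p = 0.0076) and Egr1 without injured meninges 3 (-4.43, adjusted p = 0.0069). Leaving out the highest library of the lower group favours such a call. Each was the only call, among 12 alternatives with an adjusted p for Fos and 13 for Egr1. Fosb, with 16.3, 0.0783 and 16.8 CPM against 532, 642 and 701 CPM, missed the threshold as well (-5.81 ± 1.27, adjusted p = 0.11). Fosb was called lower without injured meninges 2 (adjusted p = 1.3e-05), without the robust option (adjusted p = 0.019) and by DESeq2 (adjusted p = 0.0016). Klf6 (-0.97 to 0.09) and Btg1 (-0.66 to 0.51) had 95% intervals within 2-fold, Klf6 in 7 of 13 alternatives.

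The NF-κB list followed in part. Of 25 genes tested, 5 were lower, none was higher, and the median log2 fold change was -0.63. DESeq2 called 7 lower and none higher, and 7 reached an unadjusted p under 0.05. Among all genes, edgeR called 1.12% lower and DESeq2 called 876 of 15051 lower. Called genes encoded mainly inhibitors of the pathway. Tnfaip3, which encodes the ubiquitin-editing enzyme A20, stood at 334, 225 and 559.9 CPM against 1456, 1907 and 1860.4 CPM (-2.22 ± 0.30, adjusted p = 0.0038). Nfkbid, an atypical inhibitor gene, stood at 4.64, 11.1 and 4.87 CPM against 121, 213 and 160.2 CPM (-4.59 ± 0.48, adjusted p = 0.00068). Both groups were separate, and lung 1 was again the lowest lung library. Nfkbia (-1.83 ± 0.37, adjusted p = 0.037), Nfkbiz (-2.16 ± 0.36, adjusted p = 0.012) and the subunit gene Rel (-1.91 ± 0.39, adjusted p = 0.038) completed the 5. The subunit gene Nfkb1 (-0.96 to 0.00), Birc3 (-0.93 to 0.02) and Cyld (-0.43 to 0.62) had intervals within 2-fold, Nfkb1 in 8 and Birc3 in 7 of 13 alternatives. The Nfkbia call was lost without injured meninges 1, injured meninges 3, lung 2 or lung 3 (adjusted p = 0.090 to 0.27), the Rel call without injured meninges 1, injured meninges 2, lung 2 or lung 3 (adjusted p = 0.051 to 0.22) and the Nfkbiz call without lung 2 (adjusted p = 0.056). The number of NF-κB genes called was 3 without injured meninges 1, 2 without lung 2 and 3 without lung 3.

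Promoters of these genes were read from RefSeq (GRCm38.p6) in windows of 300 bases, from 250 before to 50 after the start site, and searched on both strands. A kappa B site (GGGANTTCC) was found for Tnfaip3, Nfkbid and Rel, 3 of the 4 called NF-κB genes with a window, and for 8 of the 22 tested NF-κB genes with a window (36.4%). Over all 27025 genes with a window the share was 1.92%. A cyclic AMP response element (TGACGTCA) was found for Dusp1 and Ppp1r15a, 2 of the 11 called immediate early genes with a window, against 2.03% of all genes. The AP-1 site (TGANTCA) was found in none of these 11, against 8.97% of all genes. The CArG box, pairs of C and G around a run of A or T, was found for 1 of them, Zfp36, against 1.81%. A heat shock element (TTCNNGAA) was found for none of the 2 called heat shock genes with a window. It was found for 5 of the 21 tested heat shock genes with a window, against 9.6% of all genes. No 2 motifs overlapped in the windows shown. A match is a description of the letters in the window, and binding was not measured. Only the patterns given were searched, so sites of another length or spelling would be missed. Nfkbia, the called NF-κB gene with a window but no kappa B match, may hold such a site. The windows printed are those of 4 called genes with a match, 5′ to 3′ on the gene's strand, with matches in capitals. Other called genes with a match are not printed, among them Ppp1r15a, which held a kappa B site and a cyclic AMP response element. Nfkbid and Tnfaip3 also had windows at other start sites, which held no match.
Tnfaip3, chr10:19015361-19015660, minus strand, AP-1 site then kappa B site: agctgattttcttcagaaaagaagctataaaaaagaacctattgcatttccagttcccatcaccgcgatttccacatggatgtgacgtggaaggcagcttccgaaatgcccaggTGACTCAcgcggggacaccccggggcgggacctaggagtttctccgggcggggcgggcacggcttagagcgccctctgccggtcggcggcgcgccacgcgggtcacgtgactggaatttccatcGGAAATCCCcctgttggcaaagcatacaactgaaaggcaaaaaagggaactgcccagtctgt
Nfkbid, chr7:30422156-30422455, plus strand, a pair of kappa B sites then a cyclic AMP response element: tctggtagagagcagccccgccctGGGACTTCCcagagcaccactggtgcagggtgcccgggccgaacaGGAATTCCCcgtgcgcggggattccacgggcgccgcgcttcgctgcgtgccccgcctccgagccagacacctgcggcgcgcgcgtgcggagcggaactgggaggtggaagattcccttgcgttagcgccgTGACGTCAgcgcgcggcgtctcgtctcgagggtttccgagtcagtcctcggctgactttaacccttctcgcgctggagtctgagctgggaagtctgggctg
Rel, chr11:23770920-23771219, minus strand, kappa B site: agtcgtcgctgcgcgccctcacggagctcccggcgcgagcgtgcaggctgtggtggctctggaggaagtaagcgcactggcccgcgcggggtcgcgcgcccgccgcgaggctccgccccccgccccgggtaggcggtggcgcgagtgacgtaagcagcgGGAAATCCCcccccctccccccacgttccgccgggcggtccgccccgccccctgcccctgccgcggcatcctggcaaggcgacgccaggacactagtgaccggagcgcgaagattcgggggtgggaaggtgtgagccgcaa
Dusp1, chr17:26508423-26508722, minus strand, cyclic AMP response element: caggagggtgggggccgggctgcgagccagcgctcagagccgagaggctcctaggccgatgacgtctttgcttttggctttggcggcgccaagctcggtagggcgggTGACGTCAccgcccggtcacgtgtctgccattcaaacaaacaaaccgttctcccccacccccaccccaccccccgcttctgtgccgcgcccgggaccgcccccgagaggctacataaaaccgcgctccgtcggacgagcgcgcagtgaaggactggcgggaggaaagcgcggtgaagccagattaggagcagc

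Of 19 cytokine genes tested, 3 were lower, none was higher, and 8 reached an unadjusted p under 0.05. DESeq2 called 5 lower and 1 higher, beside 876 lower and 262 higher of 15051 genes. The share of all genes called lower by edgeR was 1.12%. Areg encodes amphiregulin, an epidermal growth factor receptor ligand that ILC2s use in tissue repair. It measured 6.35, 5.01 and 14.3 CPM in injured meninges and 66.6, 312 and 218 CPM in lung (-4.54 ± 0.62, adjusted p = 0.0039). The lung libraries spread widely, and lung 1, the lowest, still exceeded every injured library. Lif, a cytokine of the IL-6 family, measured 5.82, 1.8 and 17.4 CPM and 54.4, 142 and 156 CPM (-3.81 ± 0.75, adjusted p = 0.031). The Lif call was lost without injured meninges 1, lung 2 or lung 3 (adjusted p = 0.093 to 0.16). Vegfa, the vascular growth factor gene, measured 1.23, 0 and 0.801 CPM and 70.5, 23.7 and 53 CPM (-6.13 ± 1.11, adjusted p = 0.019), a call lost without injured meninges 3, lung 1 or lung 3 (adjusted p = 0.075 to 0.11). Csf2, which encodes GM-CSF, overlapped between groups at 16.6, 3.68 and 5.67 CPM against 15.5, 77 and 115 CPM (-3.00 ± 0.79, adjusted p = 0.11). Tnfsf10, which encodes TRAIL, lay within 2-fold (interval -0.52 to 0.65). Odc1, the first enzyme of polyamine synthesis, was also lower, at 40.8, 39.9 and 24.9 CPM against 185, 306 and 375 CPM (-3.04 ± 0.35, adjusted p = 0.0014), with no overlap.

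Of 25 genes of the heat shock and unfolded protein responses, 3 were lower and none was higher in edgeR, 6 and none in DESeq2, and 11 had an unadjusted p under 0.05. Among all genes, edgeR called 1.12% lower and DESeq2 called 876 of 15051 lower. The chaperone gene Hspa1b stood at 0.0588, 0 and 0.0616 CPM against 15.1, 70.8 and 46.2 CPM (-9.76 ± 1.12, adjusted p = 0.0014). Reads of Hspa1b and its near-identical copy Hspa1a, which was not called (0, 2.66 and 0.0616 CPM against 3.33, 55.8 and 79.7 CPM, adjusted p = 0.13), may have been split between them, so both values are uncertain. Hsp90aa1 stood at 129, 119.8 and 84.1 CPM against 181, 575 and 419 CPM (-1.82 ± 0.38, adjusted p = 0.040), and Dnaja1 at 182, 101 and 231 CPM against 329, 809 and 607 CPM (-1.76 ± 0.37, adjusted p = 0.040). Groups were separate in each, with lung 1 the lowest lung library. The Hsp90aa1 call was lost without injured meninges 1, injured meninges 2, injured meninges 3, lung 2 or lung 3 (adjusted p = 0.054 to 0.18) and that of Dnaja1 without injured meninges 1, injured meninges 2, injured meninges 3, lung 2 or lung 3 (adjusted p = 0.056 to 0.17), and both were lost without the robust option (adjusted p = 0.051 and 0.052). An edgeR fit with the replicate number as a block also ended the calls of Hsp90aa1 (adjusted p = 0.069) and Dnaja1 (adjusted p = 0.066). The number of heat shock genes called was 1 without injured meninges 3, without lung 2 or without lung 3.

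**Figure D4:**
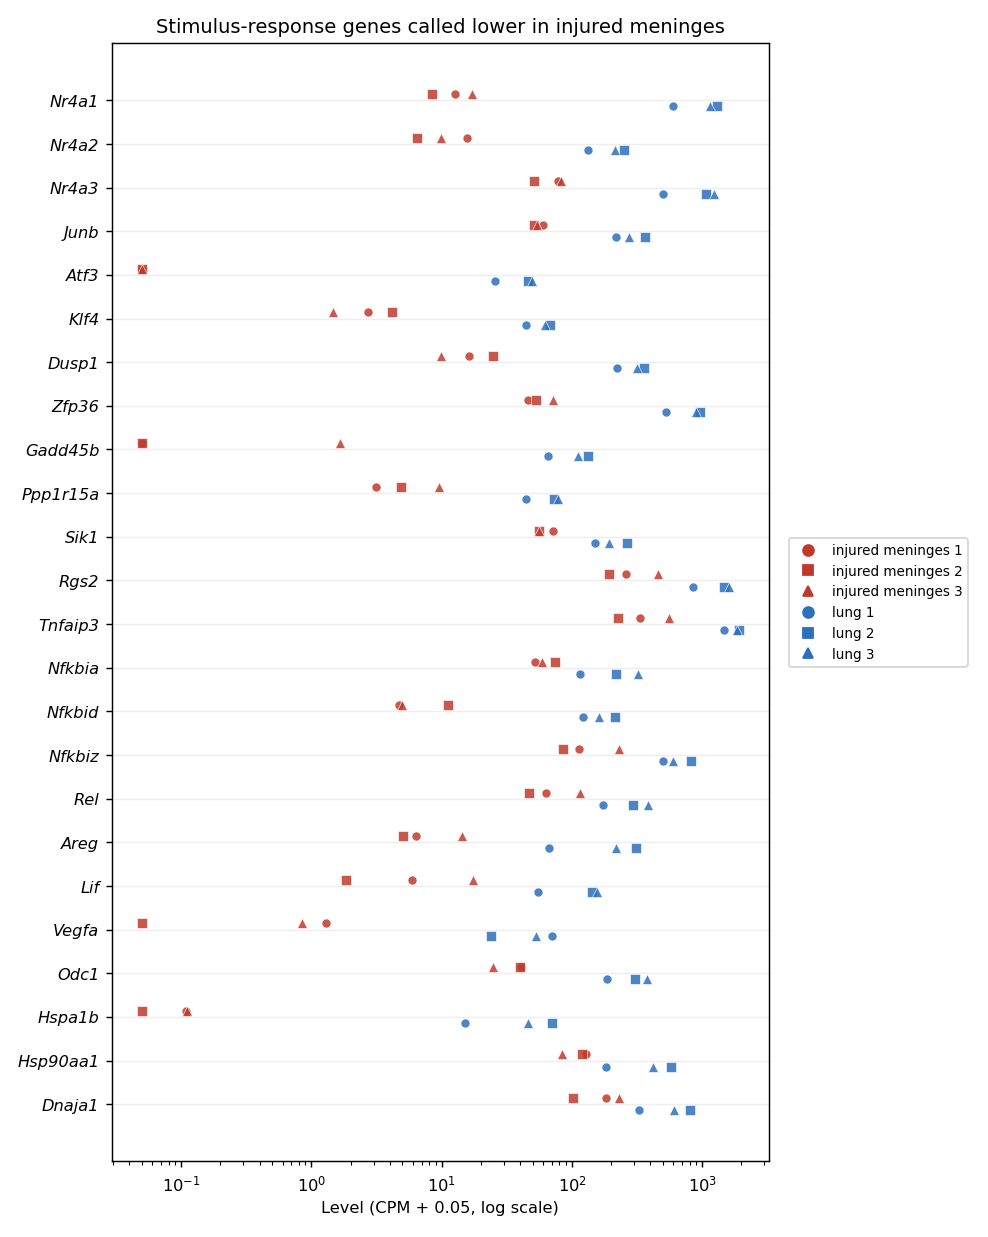
Level in each library (CPM + 0.05, log axis) of 24 called immediate early, NF-κB, cytokine, polyamine and heat shock genes, with injured meninges in red, lung in blue and the replicate given by marker shape; a count of 0 is drawn at 0.05. In every gene the 3 red marks lie left of the 3 blue marks, and lung 1 (blue circle) is the leftmost blue mark except in Vegfa, where lung 2 is leftmost. Examples are 591 CPM in lung 1 for Nr4a1 and 1456 CPM for Tnfaip3.

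Of the 153 genes called lower in injured meninges, 110 were in none of the lists, and most of these are not named here. Among the 110 were Hpgd, at 0.0588, 0 and 0 CPM against 146, 40.2 and 183 CPM, and Mfap4, with no count in injured libraries and 56.9, 46.2 and 57.8 CPM in lung. Which cells such transcripts came from was not tested. The lower genes described next encode surface receptors, enzymes and transcription factors. EdgeR called 3 of 29 chemokine receptor and trafficking genes lower and, beside 1 called higher, 3 of 22 lipid handling genes, against 1.12% of all genes tested. Stab2, a scavenger receptor gene best known from sinusoidal endothelium, stood at 151, 199 and 169 CPM against 1277, 1592 and 1256 CPM (-2.99 ± 0.21, adjusted p = 5.8e-05). The libraries of each group lay close together, and the call held under all 13 alternatives. Calcrl encodes the shared receptor chain for CGRP and adrenomedullin and stood at 41.9, 86 and 107 CPM against 689, 287 and 814 CPM (-2.93 ± 0.43, adjusted p = 0.0056). Lung 2 was the lowest lung library for Calcrl, still above every injured library. Cd44, a hyaluronan receptor gene, stood at 261, 193 and 258 CPM against 553, 680.3 and 886 CPM (-1.57 ± 0.24, adjusted p = 0.0080). The chemokine receptor gene Ccr8 stood at 54.6, 57.7 and 89.4 CPM against 164, 266 and 216 CPM (-1.68 ± 0.31, adjusted p = 0.024), and Ccr2 at 516, 739 and 537 CPM against 1031, 1374 and 1506 CPM (-1.13 ± 0.22, adjusted p = 0.028). Groups were separate in all 3. The Cd44 call was lost without lung 3 (adjusted p = 0.062), that of Ccr8 without injured meninges 1, lung 2 or lung 3 (adjusted p = 0.059 to 0.13) and that of Ccr2 without injured meninges 1, injured meninges 3, lung 2 or lung 3 (adjusted p = 0.057 to 0.19).

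Epas1, which encodes the hypoxia factor HIF-2α, stood at 163, 139 and 116 CPM against 1089, 642 and 811 CPM (-2.61 ± 0.26, adjusted p = 0.00053). The fatty acid receptor gene Cd36 stood at 3.06, 13.3 and 2.03 CPM against 241, 67.6 and 312 CPM (-5.08 ± 0.79, adjusted p = 0.0083). Both were lowest, among lung libraries, in lung 2. The Cd36 call was lost without a filter on low counts (adjusted p = 0.18), in a fit of all 9 libraries (adjusted p = 0.060) and with the replicate number as a block (adjusted p = 0.060). Bhlhe40, a transcription factor gene of activated lymphocytes, stood at 172, 65.3 and 108 CPM against 435, 634 and 660.5 CPM (-2.32 ± 0.34, adjusted p = 0.0060), and Ahnak, a large scaffold protein gene, at 747, 1097 and 775 CPM against 2773, 2745 and 2772 CPM (-1.66 ± 0.19, adjusted p = 0.0014). The calls of Epas1, Bhlhe40 and Ahnak held under all 13 alternatives.

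Markers of cells outside the gate differed between the same groups. Of 19 lung epithelial genes listed, 11 were tested and 9 of these had every injured library below every lung library. The share over all genes tested was 11.4%. Their summed level was 42.9, 32.3 and 17 CPM in injured meninges and 2318, 761 and 1376 CPM in lung. Sftpc and Cldn18, which mark alveolar epithelium, had no count in any injured library. Of 15 endothelial genes tested, 9 did not overlap, with sums of 271, 208 and 112 CPM and 1559, 508 and 1275 CPM, and Tmem100 had no count in injured libraries. Of 12 fibroblast genes tested of 15 listed, 9 did not overlap, with sums of 52.3, 20.3 and 4.87 CPM and 287, 241 and 471 CPM, and Pdgfra, Dpt and Inmt had no count. Called lower among these lists were Sftpa1, Cldn18, Pdgfra, Inmt, Dpt, Tmem100, Ptprb and Tek. The call was lost for Tek without injured meninges 3, lung 1, lung 2 or lung 3 (adjusted p = 0.058 to 0.21) and in a fit of all 9 libraries (adjusted p = 0.088). It was lost for Sftpa1 without injured meninges 1 or injured meninges 2 (adjusted p = 0.054 to 0.092) and without a filter on low counts (adjusted p = 0.12), for Dpt without lung 3 (adjusted p = 0.15) and for Ptprb in a fit of all 9 libraries (adjusted p = 0.17). Tmem100 was at least 318-fold lower, with 61.2, 23.5 and 105 CPM in lung, and Pdgfra, a mesenchymal receptor gene, at least 213-fold lower, with 46.2, 32.9 and 47.8 CPM. The part of such transcripts in the results above was not tested, and in bulk libraries fewer cells of a type and less RNA per cell cannot be told apart.

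The lung libraries ordered these groups of genes differently. Of the 38 epithelial, endothelial and fibroblast genes tested, 31 were lowest in lung 2, as were, among others, Calcrl, Cd36, Epas1 and Vegfa. Of the 39 immediate early genes, 29 were lowest in lung 1 and 6 in lung 2, and all 12 called members were lowest in lung 1. The summed level of immediate early genes was 7509, 11864 and 11595 CPM in lung 1, 2 and 3 and 3109, 3180.1 and 4603 CPM in injured meninges. Lung 2 and lung 3 were thus close. The 38 marker genes summed to 4164, 1509 and 3122 CPM in lung 1, 2 and 3. Stab2 was highest in lung 2. Of the 153 genes called lower, 64, 84 and 5 were lowest in lung 1, 2 and 3. Over all genes tested, 4392, 5064 and 4265 were lowest in lung 1, 2 and 3. Which cells the transcripts came from was not tested.

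**Figure D5:**
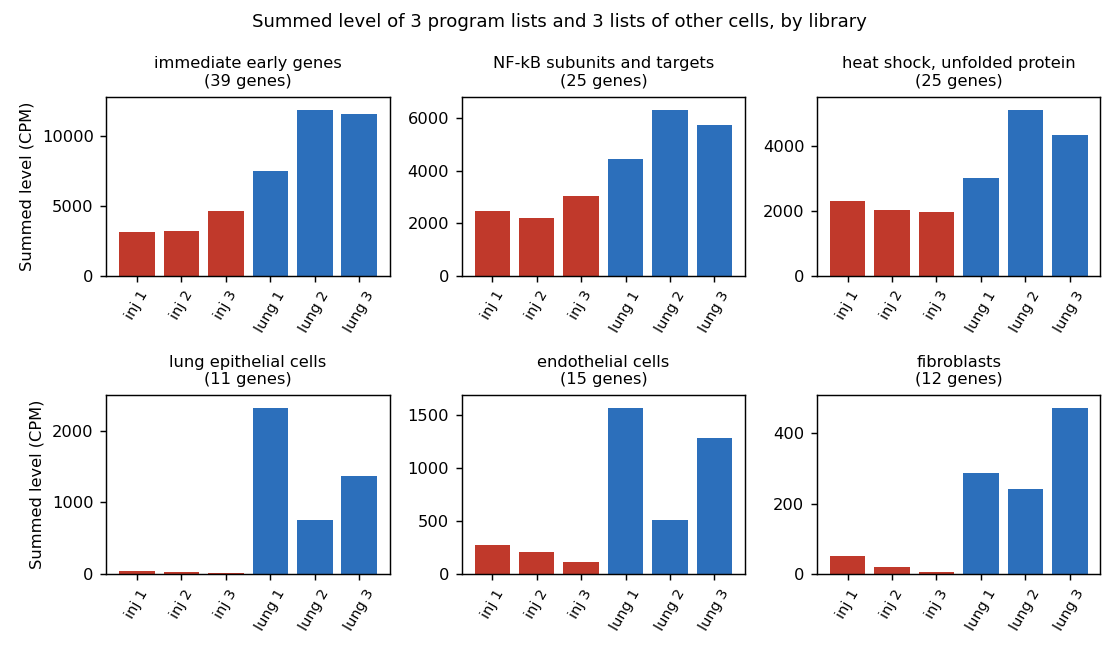
Summed level in CPM per library of the tested members of 3 program lists (top) and 3 lists of other cell types (bottom), with injured meninges in red and lung in blue; each panel has its own vertical axis, starting at 0. Lung 1 has the lowest lung sum in the top panels and lung 2 in the bottom ones, while every injured library lies below every lung library in all 6 panels.

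Markers of lymphocytes that the gate should remove were also read. Of 13 T cell genes listed, 10 were tested and edgeR called none, with none at an unadjusted p under 0.05 and none called by DESeq2. Their sums were 219, 353 and 218 CPM in injured meninges and 238, 328 and 307 CPM in lung. Of 11 B cell genes tested, Ighm alone was called by edgeR, at 46.4, 58.2 and 28.2 CPM against 168, 276 and 172 CPM (-2.21 ± 0.36, adjusted p = 0.010), and 4 members reached an unadjusted p under 0.05. DESeq2 called 4 of the list lower. Among all genes, edgeR called 1.12% lower and DESeq2 called 876 of 15051 lower. In 5 of the 11, every injured library lay below every lung library, against 11.4% of all genes. Groups were separate for Ighm, whose call was lost without lung 2 (adjusted p = 0.071). Sums over the B cell list were 77.8, 149.9 and 36.1 CPM and 266, 334 and 316 CPM.

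Levels in uninjured meninges were set beside these. This view shares both the injured and the lung libraries with the comparison above, and is given as levels (mean ± SD, n = 3) on a scale common to all 9 libraries, without a test. Ikzf3 stood at 273 ± 15.8 CPM in uninjured meninges, 1906 ± 329.5 CPM in injured meninges and 378 ± 9.58 CPM in lung. Calca stood at 5.33 ± 6.26, 473 ± 134 and 169 ± 79.3 CPM in the same order. For both, lung lay between the uninjured and the injured meninges. Nr4a1 stood at 25.4 ± 30.5, 12.9 ± 4.5 and 1035 ± 385 CPM, and Calcrl at 103 ± 17.3, 79.5 ± 33.7 and 608 ± 279.8 CPM. In these genes both meningeal groups lay far below lung. Stab2 stood at 830.2 ± 262, 176 ± 24.8 and 1403 ± 197 CPM, the injured meninges being lowest.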

How the data were processed

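RNA of sorted ILC2s was sequenced after extraction with the PicoPure kit and amplification with the Ovation RNA-Seq System V2, per the labels' protocols. The deposited values are raw counts per gene, whole numbers that the authors did not normalize. The submitters' processing notes name STAR, HTSeq, FastQC and the build mm9 without a version or role. The use of strand in counting is not given in the sources used, so overlapping and antisense genes cannot be told apart. Of 23466 genes in the deposited table, 15969 carried a symbol, 7407 were named from a reference list by identifier and 90 kept the identifier. No gene coordinates are given beyond the promoter windows, because the reference build differs from mm9.

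Counts of the 6 libraries entered edgeR 4.0.16 under R 4.3.3 (filterByExpr with the group, trimmed mean of M values, robust quasi-likelihood F test, Benjamini-Hochberg adjustment over all genes tested, no covariates). The filter left out 9745 genes. Standard errors were obtained from the log2 fold change and the F statistic, and 95% intervals use the t distribution with the moderated degrees of freedom. For a gene at 0 throughout a group, the fold is a bound, the ratio of the other mean to a floor of 3 counts per library (0.176 to 0.235 CPM), which covers counting error only, since amplified reads are not independent molecules. All pairs of libraries differed by more than sampling noise (lowest chi-square per degree of freedom 62.8). DESeq2 1.42.0, other scalings and filters, a fit of all 9 libraries and the omission of each library were alternatives. The procedure was tested on simulated counts for this comparison with 13010 genes. It recovered 4%, 38%, 74% and 86% of 50 genes each that were changed 2-, 4-, 8- and 16-fold at 10 CPM or more, with 6 false calls among 107. The simulated counts were drawn from the fitted negative binomial model, with changes in either direction at random. No simulated library stood apart by design as injured meninges 2 did. The share of false calls in the real data was therefore not measured.

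The comparison and the gene lists were chosen with earlier results of these data known. Genes were named by a rule. It took, per direction, the 12 called genes with the largest change with separate groups and 10 CPM or more in each library of the higher group, without ribosomal, small and predicted RNAs or antigen receptor segments. It added the 3 lowest-p members of each program list, a set of 66 genes whatever their value, and the most abundant and lowest-p member of each list of other cells. Fewer are named than it gives. Named outside the rule, after their values were seen, were Ahnak, Bcl11b, Bhlhe40, Birc3, Btg1, Ccl3, Cldn18, Cxcr6, Cyld, Dpt, Egr1, Emb, Epas1, Ets1, Fos, Fosb, Gadd45b, Glul, Gpr65, Hlf, Id2, Ifrd1, Ikzf1, Il18rap, Itga4, Jak1, Junb, Klf4, Klf6, Maf, Nfkb1, Notch2, Nr3c1, Ppp1r15a, Prdx6, Rgs1, Runx1, Sftpc, Sik1, Tek, Tnfsf10, Ttn and Vim.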

Additional observations from a re-analysis of the deposited data

How the results depend on the processing

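Scarce genes and changes under 4-fold were mostly beyond reach with 3 libraries per group, and single libraries weighed on the counts. Leaving out each library in turn gave 59 to 240 genes called, 5 to 26 higher, 52 to 214 lower and 736 to 1400 within 2-fold. It gave 8 to 16 immediate early, 2 to 5 NF-κB and 1 to 3 heat shock genes and 6 to 12 epithelial, fibroblast and endothelial markers lower. Without a filter on low counts 431 genes were called, 86 higher and 345 lower, with 8 heat shock genes and 15 epithelial, fibroblast and endothelial markers lower. The DESeq2 Wald test called 1138, 262 higher and 876 lower, so that 23% were higher in place of 11%, and included all 172 genes. With all 9 libraries in the fit, 5 heat shock genes were lower, and without the robust option 1. The cause of these shifts was not tested. Nothing in the labels says that the replicate numbers pair the libraries. Same-numbered libraries of the 2 groups correlated at 0.0713, 0.0203 and -0.0431 in their deviations from the group means. With 3 libraries per group, these values cannot show whether libraries shared a day or pool. With a replicate block, 167 genes were called, 21 higher and 146 lower, 137 of them shared, and 1228 lay within 2-fold. It called 13 immediate early, 5 NF-κB and 2 heat shock genes and 11 markers of other cells lower. The block left Itga2, Hif3a, Cd36, Hsp90aa1, Dnaja1, Ccl3 and Glul without a call (adjusted p = 0.051 to 0.11) and called Calca (adjusted p = 0.033), Lmo4 (adjusted p = 0.026), Hspa1a (adjusted p = 0.041) and Sftpc (adjusted p = 0.00016). Of the results on single genes under the alternatives, 2209 kept their direction and side of the threshold, 174 lost a call, 74 gained one and 50, called in neither, changed sign. Among the genes checked in this way, which do not include all 172 called genes, no called gene reversed its direction.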

Other observations

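Genes outside the lists also separated the groups. Ifrd1, a transcriptional co-regulator gene, measured 43, 31.7 and 55.6 CPM in injured meninges and 307, 569 and 883 CPM in lung (-3.75 ± 0.39, edgeR adjusted p = 0.00068). Prdx6, which encodes an antioxidant enzyme, measured 103, 46.3 and 81.2 CPM and 287, 348 and 364 CPM (-2.11 ± 0.32, adjusted p = 0.0064). Both calls held under all 13 alternatives. Vim, which encodes the filament protein vimentin, measured 66.5, 105 and 84.1 CPM and 273, 227 and 278 CPM (-1.61 ± 0.27, adjusted p = 0.014), and its call was lost without injured meninges 3, lung 1 or lung 3 (adjusted p = 0.051 to 0.099). Groups did not overlap in these 3 genes.

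The chemokine gene Ccl3 had no count in any injured library and 13.2, 14.8 and 9.1 CPM in lung, at least 62.3-fold lower (adjusted p = 0.028), and its call was lost without injured meninges 1, injured meninges 3, lung 1, lung 2 or lung 3 (adjusted p = 0.051 to 0.13) and in a fit of all 9 libraries (adjusted p = 0.065). Emb, an adhesion molecule gene, was above lung in every injured library, at 844, 1267 and 1181 CPM against 426, 531 and 455 CPM (1.22 ± 0.21, adjusted p = 0.016). The Emb call was lost without injured meninges 3, lung 1, lung 2 or lung 3 (adjusted p = 0.056 to 0.11). Glul, which encodes glutamine synthetase, was likewise higher, at 316, 461 and 184 CPM against 113, 114 and 107 CPM (1.52 ± 0.32, adjusted p = 0.043). Its call was lost without injured meninges 1, injured meninges 2, lung 1, lung 2 or lung 3 (adjusted p = 0.088 to 0.22), with DESeq2 size factors in edgeR (adjusted p = 0.051) and without the robust option (adjusted p = 0.053). The replicate block in edgeR also ended the calls of Glul (adjusted p = 0.051) and Ccl3 (adjusted p = 0.11).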
